A study of Arabidopsis thaliana with 3 samples.

Results

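Genes of the embryo sac cells other than the central cell were examined in flowers and siliques of *Arabidopsis thaliana* plants that overexpress *ABAP1*. The genes were *EC1.1* (AT1G76750) and *EC1.5* (AT5G64720) of the egg cell, *UBC31* (AT1G36340, also called *DD1*) of the antipodal cells, and *FER* (AT3G51550), which acts in the synergids. They were chosen by name, with earlier results of these data known. All 4 had a single-gene probe, which lists no other gene, as did 5413 genes in all of the 13978 on any named probe. ABAP1OE plants carry *ABAP1* under the constitutive 35S promoter of cauliflower mosaic virus in the Col-0 ecotype, and the study could not recover homozygous overexpressors. At each stage a pool of ABAP1OE material was compared with a pool of wild-type (WT) Col-0 material. Flower buds were of stage 13, open flowers of stage 14 and siliques of stages 15 to 16. Both genotypes were hybridised to 2-colour oligonucleotide arrays, and for every probe the 3 biological replicates of a stage were merged by the authors into a single log2 ratio of ABAP1OE over WT. No named probe reports *ABAP1* itself, so its overexpression could not be checked on these arrays. The paper reported increased *ABAP1* mRNA in ABAP1OE flower buds by quantitative real-time PCR after reverse transcription (qRT-PCR).

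The mature embryo sac holds the egg cell and synergids near the opening of the ovule, a large central cell, and antipodal cells at the opposite end. EC1 proteins are small, cysteine-rich proteins that the egg cell secretes when sperm arrive, and they activate the sperm for gamete fusion. FERONIA (FER) is a receptor-like kinase of the synergid surface that is needed for the pollen tube to stop growing and release its sperm, and it is also active throughout the rest of the plant. UBC31 belongs to the ubiquitin-conjugating enzymes, which carry activated ubiquitin to its substrates, and its gene is known as a marker of antipodal cells.

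A ratio of 0 means equal levels in both genotypes and -1 means a 2-fold lower level in ABAP1OE. With this single ratio there was no replicate error, no test between genotypes and no test between stages, so every size below is a description of these arrays. No expression levels were used here, so whether the markers of a cell type were present in a pool could not be examined. In whole flowers and siliques, fewer cells of a type and less RNA per cell cannot be told apart. At every stage the probes had a median of 0.

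In flower buds, 3 of the 4 genes were lower in ABAP1OE than in WT, beside 46.8% of all genes below 0, and the order was *UBC31*, *EC1.1*, *EC1.5* and *FER*, from the lowest. *UBC31* had a log2 ratio of -2.19, a 4.56-fold lower level in ABAP1OE. *EC1.1* followed at -1.61, a 3.05-fold lower level, and *EC1.5* stood at -0.66, a 1.58-fold lower level. *FER* was at 0.04, a 1.03-fold higher level in ABAP1OE. Only *UBC31* and *EC1.1* were thus at least 2-fold lower in the buds, as were 4.40% of all genes. None of the 4 was 2-fold higher in the buds, as 1.11% of all genes were.

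In open flowers 2 of the 4 genes were below 0, as were 50.1% of all genes, and none reached 2-fold in either direction. *UBC31* was again the lowest of them, at -0.43, and *EC1.1* was next at -0.37. *FER* stood at 0.00 and *EC1.5* at 0.03, both within 1.02-fold of WT. Among all genes, 2.81% were at least 2-fold lower at this stage and 1.27% at least 2-fold higher.

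In siliques the genes also stayed under 2-fold, with 2 below and 2 above 0, beside 51.3% of all genes below 0. *EC1.5* was the lowest at -0.53, a 1.44-fold lower level in ABAP1OE, and *EC1.1* stood at -0.28. *FER* was at 0.26 and *UBC31* at 0.36, which are 1.20-fold and 1.28-fold higher levels. Of all genes, 2.36% were at least 2-fold lower in siliques and 1.24% at least 2-fold higher.

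**Figure D1:**
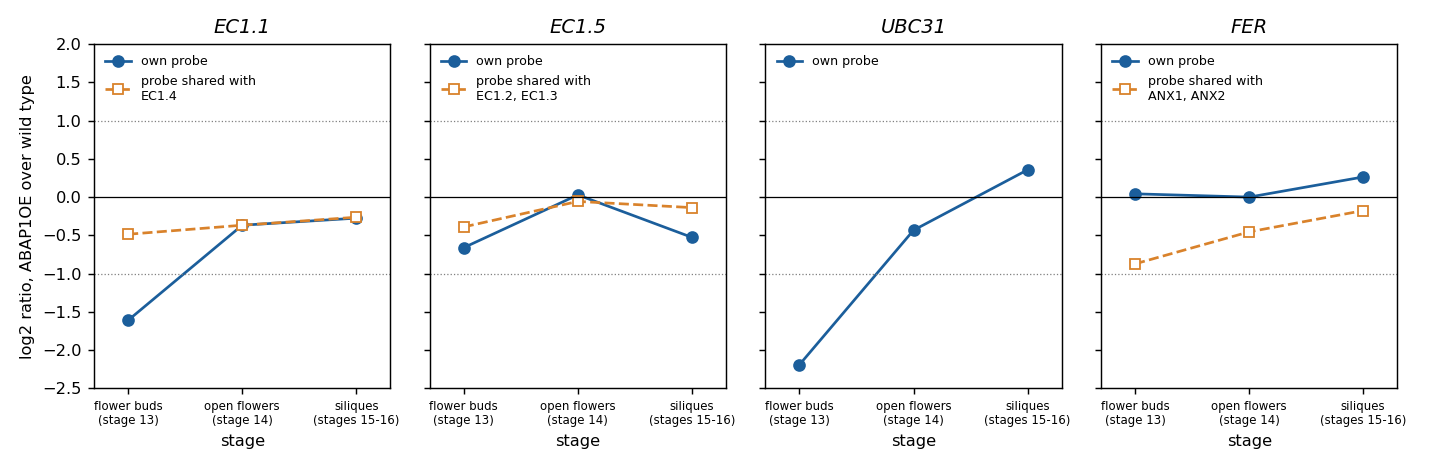
Log2 ratio of ABAP1OE over wild type (vertical axis) at the 3 stages (horizontal axis) for *EC1.1*, *EC1.5*, *UBC31* and *FER*, 1 panel each. Filled circles are the probe of that gene alone, open squares a probe that also lists the genes named in the panel, and dotted lines mark 2-fold; each point is 1 combined ratio without an error. *UBC31* runs from -2.19 in buds to 0.36 in siliques, while the probe of *FER* alone stays between 0.00 and 0.26.

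The place of each gene among all 5413 genes differed by stage. In flower buds 109 genes (2.01%) had a ratio at or below that of *UBC31*, 135 (2.49%) at or below that of *EC1.1* and 372 (6.87%) at or below that of *EC1.5*. *FER* lay in the middle of the distribution, with 57.8% of genes at or below it. In open flowers *UBC31* (8.42%) and *EC1.1* (10.5%) were still in the lower part, whereas *EC1.5* (58.0%) and *FER* (52.8%) were near the middle. In siliques *EC1.5* was in the lower part (7.57%) and *EC1.1* less so (20.1%), and 14.3% of genes were at or above *UBC31* and 20.5% at or above *FER*.

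**Figure D2:**
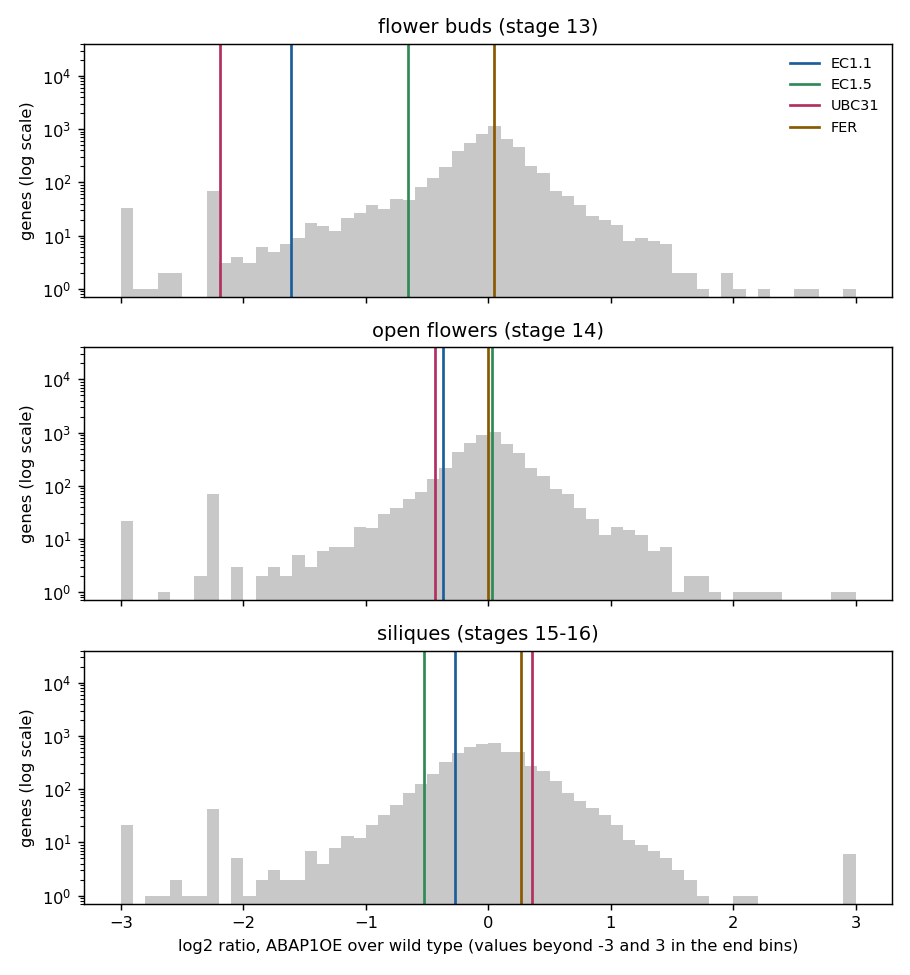
Number of genes (vertical axis, log scale) by log2 ratio of ABAP1OE over wild type (horizontal axis, bins of 0.1) for the 5413 genes with a single-gene probe, with values beyond -3 and 3 in the end bins; coloured lines mark *EC1.1*, *EC1.5*, *UBC31* and *FER*. In buds *UBC31* stands beside the bar that holds the 67 genes at exactly -2.21.

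*UBC31* showed the widest range over the stages. Its ratio in open flowers was 1.76 above that in buds on the log2 scale, and 116 of the 5413 genes (2.14%) differed as much or more between these stages. Its ratio in siliques was 2.55 above that in buds, a difference matched or passed by 62 genes (1.15%). The step between open flowers and siliques was 0.79, which 8.85% of genes reached. The sign of the ratio changed with it, since the transcript was lower in ABAP1OE buds and open flowers and higher in ABAP1OE siliques. The silique value of 0.36 rests on 1 probe, and the typical SD between probes of a gene was 0.27 at that stage. Whether antipodal cells were present in the siliques was not examined.

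The bud ratio of *UBC31* lay close to a value that recurs in the table. Ratios were limited to 100-fold, and 361 transcript probes stood at exactly -2.21 in buds, a 4.64-fold lower level, which is the cube root of that limit. *UBC31* was 0.03 above this value on the log2 scale. Among the 5413 genes, 67 were at that value, 40 were below it, and 131 were between it and 2-fold lower. *UBC31* was among the lowest 2 of these 131. Spots without any probe had a median of -2.21 in buds, and 29 of the 36 were at or below -2.21. The part of low signal in the ratio of *UBC31* was not tested, as intensities were not used here. No probe shared with another gene lists *UBC31*, so its ratio rests on 1 probe.

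*EC1.1* was lower in ABAP1OE at every stage, and most of all in buds. Its ratio in open flowers was 1.24 above that in buds, and 209 genes (3.86%) differed as much or more. Between buds and siliques the difference was 1.33, reached by 245 genes (4.53%), while open flowers and siliques differed by 0.09. *EC1.5* did not share this course. Its ratio was 0.69 higher in open flowers than in buds, a difference that 11.2% of genes reached, while siliques minus open flowers gave -0.55, which 17.0% of genes reached in size. Its values in buds and siliques differed by 0.13, less than the typical SD of 0.18 in buds and 0.27 in siliques between probes of the same gene. This SD comes from 49 genes in buds and 48 in siliques, without ratios of 4.64-fold or more. It describes probes within a stage and is not the error of a difference between stages.

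The family of *EC1* genes has 5 members, which share similar sequences, and *EC1.2* and *EC1.3* lie next to each other on the same chromosome. *EC1.1* and *EC1.5* each had a single-gene probe, and 3 further probes listed several *EC1* genes. In flower buds all 5 probes were below 0, as were 48.0% of all transcript probes, and the highest of the 5, at -0.39, was still at or above only 12.4% of all probes. The probe of *EC1.1* and *EC1.4* had a ratio of -0.49, that of *EC1.2*, *EC1.3* and *EC1.4* had -0.50 and that of *EC1.2*, *EC1.3* and *EC1.5* had -0.39. The shared probes thus lay close to each other and well above the probe of *EC1.1* alone. These probes list overlapping genes and are not independent measurements of the family.

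At the later stages the *EC1* probes lay closer to 0. In open flowers 4 of the 5 were below 0, beside 49.4% of all probes, over a range of -0.37 to 0.03 and with a median of -0.16. The highest of the 5 stood near the middle, with 57.2% of all probes at or below it. In siliques 4 of the 5 were again below 0, beside 49.4% of all probes, and the range was -0.53 to 0.19 with a median of -0.26. The highest silique value belonged to the probe of *EC1.2*, *EC1.3* and *EC1.4*, and 72.9% of all probes were at or below it.

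The choice of probe mattered most for *EC1.1* in buds. The probe shared with *EC1.4* was 1.12 above the probe of *EC1.1* alone, and with both averaged *EC1.1* stood at -1.05, still past 2-fold, as were 4.64% of genes under this setting. Among the 1958 genes that had both kinds of probe, 198 (10.1%) differed by as much in buds, against a median difference of 0.28. In open flowers both probes of *EC1.1* gave -0.37, and in siliques they differed by 0.01. For *EC1.5* the shared probe differed from the single-gene probe by 0.27 in buds, -0.09 in open flowers and 0.39 in siliques. With both averaged *EC1.5* was at -0.52 in buds, -0.01 in open flowers and -0.33 in siliques.

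*FER* showed the opposite relation. The probe of *FER* alone was at 0.04 in buds, 0.00 in open flowers and 0.26 in siliques. A second probe lists *FER* together with *ANX1* and *ANX2*, the ANXUR kinases that keep the pollen tube intact while it grows, and its ratios were -0.87, -0.45 and -0.18. In buds the shared probe minus the probe of *FER* alone gave -0.91, and 13.6% of the genes with both kinds of probe differed as much or more. With both averaged *FER* was at -0.41 in buds, -0.23 in open flowers and 0.04 in siliques, so its sign in buds turned with the choice of probe. Which of the 3 transcripts gave the signal of the shared probe cannot be told apart.

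FER belongs to a family of receptor-like kinases with malectin-like outer domains, of which 17 were listed. FER, AT2G23200 and AT2G39360 had single-gene probes, and 0 of these 3 were 2-fold lower or higher at any stage. With 4.40%, 2.81% and 2.36% of all genes 2-fold lower and 1.11%, 1.27% and 1.24% higher from buds to siliques, a count of 0 among 3 does not stand apart. Their median over buds, open flowers and siliques was 0.01, 0.03 and 0.26, beside 0.01, -0.01 and -0.01 over all genes. AT2G23200 stayed between -0.01 and 0.03. AT2G39360 was at -0.08 in buds, 0.26 in flowers and 0.53 in siliques, the highest of the 3 at the later stages.

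Probes that list several of these kinases covered 9 more members. The probe of AT4G39110 and AT2G21480, which were also listed as pollen genes, had -1.05 in buds, -0.92 in open flowers and -0.11 in siliques. AT5G38990 and AT5G39000 share 2 probes, which gave -1.10 and -0.11 in buds, and the probes of AT5G39020 and AT5G39030 had -0.03 and 0.07. With shared probes averaged in, 12 of the 17 kinases had a value, on 8 distinct values, and their median was -0.51, -0.15 and -0.10 from buds to siliques, beside -0.01 at each stage over all genes so treated. Of the 12, 2 were at least 2-fold lower in buds, both on the probe of AT4G39110 and AT2G21480, and 0 at the later stages. Among all genes so treated, 4.64% were 2-fold lower in buds, 3.33% in open flowers and 2.43% in siliques.

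Ligands and partners of FER were nearly absent from the named probes. Of 13 listed genes for RALF peptides, LORELEI proteins and downstream signalling, *RALFL34*, which encodes a RALF peptide, was the only one measured. Its ratio was 0.24 in buds, -0.50 in open flowers and -0.48 in siliques. Of 10 listed synergid genes, among them *MYB98* and the LURE attractants, *FER* was the only one on a named probe, and 0 of the 5 synergid markers were. The label of synergid gene for *FER* could therefore not be set beside other genes of that cell.

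**Figure D3:**
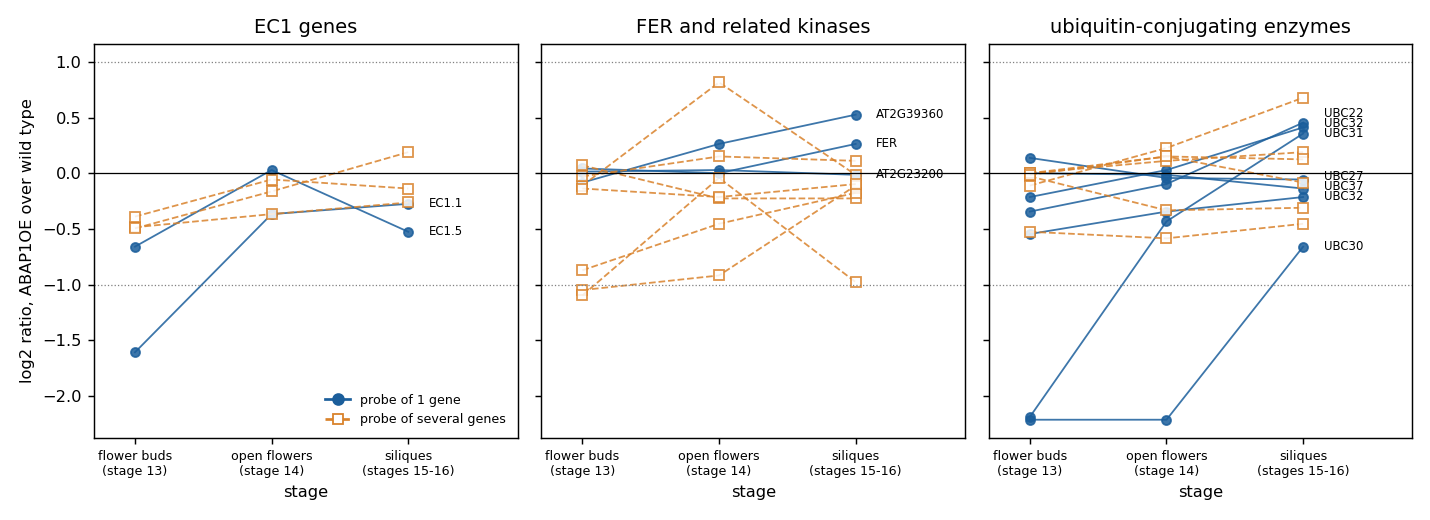
Log2 ratio of ABAP1OE over wild type (vertical axis) at the 3 stages (horizontal axis) for every probe that lists an *EC1* gene, a kinase of the FER family or a ubiquitin-conjugating enzyme; probes of the same values are drawn once. Filled circles are probes of 1 gene, named at the right, open squares probes of several genes, and dotted lines mark 2-fold. In buds *UBC31* at -2.19 and *UBC30* at -2.21 stand apart from the other ubiquitin-conjugating enzymes.

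Among 37 ubiquitin-conjugating enzyme genes, 6 had a single-gene probe, of which 2 were at least 2-fold lower in buds, 1 in open flowers and 0 in siliques, against the 4.40%, 2.81% and 2.36% of all genes given above. Besides *UBC31* the low gene was *UBC30*, at -2.21 in buds, -2.21 in open flowers and -0.66 in siliques. The bud and open flower values of *UBC30* are the recurring value of -2.21, at or below which most empty spots stood. The other enzymes remained under 2-fold. *UBC32*, whose product works in the breakdown of endoplasmic reticulum proteins, was at -0.38 in buds as the mean of its probes, *UBC22* at -0.34, *UBC27* at 0.14 and *UBC37* at 0.00. In siliques *UBC22* was at 0.45, on the same side as *UBC31*, while the probes of *UBC32* lay on both sides of 0, at 0.41 and -0.21. The median of the 6 genes was -0.36 in buds, -0.13 in open flowers and 0.02 in siliques.

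Markers of other cells in the same pools were measured on few probes. Of 11 pollen genes, *PLIM2b*, which encodes an actin-bundling protein, had a single-gene probe, with -0.98 in buds, -0.29 in open flowers and -0.15 in siliques. With shared probes kept, 7 pollen genes had a value, on 5 distinct values, and all 7 were below 0 at every stage, as were 50.2% of genes in buds, 51.6% in open flowers and 50.4% in siliques. Their range in buds was -1.78 to -0.87 with a median of -1.05, and the median was -0.92 in open flowers and -0.18 in siliques. Of the 7, 4 were at least 2-fold lower in buds, 2 in open flowers and 0 in siliques, beside 4.64%, 3.33% and 2.43% of genes with shared probes kept. The probes of *ANX1* and *ANX2* and of AT4G39110 and AT2G21480 are among them. The lowest of the 7 in buds and open flowers, *VGD1*, is a mean of probes shared with *VGDH1*. One of these probes was at the recurring value of -2.21 at both stages. The other was at -1.34 in buds and at -0.74, under 2-fold, in open flowers. Pollen genes were thus low in the same buds as *EC1.1* and *UBC31*, and their part in the ratios of these genes was not tested.

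Of 9 genes of the central cell, *AGL61* and *DME* had single-gene probes. *AGL61*, a MADS-domain regulator of that cell, was at -0.40 in buds, 0.06 in open flowers and -1.79 in siliques. *DME*, which encodes a DNA glycosylase, was between -0.11 and -0.04 at the 3 stages as the mean of its single-gene probes. These lay on opposite sides of 0 at every stage, at 0.10 and -0.24 in buds, 0.19 and -0.40 in open flowers, and -0.11 and 0.03 in siliques. *AGL80*, another MADS-domain gene of the central cell, was measured on a shared probe alone, with 0.23 in buds, 0.31 in open flowers and 0.32 in siliques. Of 7 genes of the ovule wall and its development, *INO*, which acts in the outer integument, was at -0.31 in buds, -0.21 in open flowers and -0.63 in siliques. The probe that *INO* shares with *YAB2* and *YAB5* was at -0.49, -0.52 and 0.57, opposite in sign in siliques. With both averaged, *INO* was at -0.35, -0.29 and -0.33. On these arrays neither the central cell genes nor *INO* reached 2-fold in buds, and *AGL61* did in siliques on its single-gene probe. By qRT-PCR, on material given as flower buds and as ovaries, the paper reported both *AGL61* and *AGL80* as reduced in ABAP1OE. The reduction was drastic for *AGL61* and slight but significant for *AGL80*. The probe that *AGL61* shares with other genes stood at 0.39 in buds, -0.42 in open flowers and 0.59 in siliques, opposite in sign to its single-gene probe at every stage. With both averaged, *AGL61* was at -0.01 in buds, -0.18 in open flowers and -0.60 in siliques, under 2-fold throughout.

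For each gene the 3 genes nearest in ratio over the 3 stages were taken, by Euclidean distance on the log2 scale. Nearest to *EC1.1* were AT1G26320 (distance 0.23), the beta-expansin gene *EXPB5* (0.27) and AT5G44380 (0.28). *EXPB5*, whose product loosens cell walls, had -1.44 in buds, -0.58 in open flowers and -0.32 in siliques. Nearest to *EC1.5* were AT5G02980 (0.07), AT4G05430 (0.09) and the glucosyltransferase gene *UGT84A1* (0.10). *EC1.5* was not among the genes nearest to *EC1.1*.

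*UBC31* had no close neighbour. AT3G26860 was nearest at a distance of 0.32, with -2.22 in buds, -0.74 in open flowers and 0.29 in siliques. AT1G31960 (0.44) and AT5G56430 (0.47) were next, both at -2.21 in buds. *FER* lay where most genes lie, with 1145 genes within a distance of 0.3, against 22 for *EC1.5*, 6 for *EC1.1* and 0 for *UBC31*. The nearest to *FER* were AT4G24550 (0.01), which encodes a subunit of an adaptor complex of vesicle transport, AT3G07210 (0.04) and AT1G01930 (0.05).

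The course of *UBC31* and *EC1.1*, past 2-fold in buds and under 2-fold later, was common among genes low in buds. Of 238 genes at least 2-fold lower in ABAP1OE buds, 124 (52.1%) were under 2-fold in both open flowers and siliques. Of these 124, 43 were above 0 in siliques, as *UBC31* was, and most were not. Over all genes 51.3% were below 0 there, so a silique value above 0 was less common in this group than over all genes. The 238 genes were picked by their bud values. Most genes of any kind were under 2-fold later, with 2.81% lower and 1.27% higher in open flowers, and 2.36% and 1.24% in siliques.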

How the data were processed

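The deposited values are log2 ratios of ABAP1OE over WT, which the authors made from 2-colour arrays (Operon oligonucleotides, amplified RNA, both dyes for each genotype) with 3 biological replicates combined into 1 column per stage. How background was corrected, arrays were normalized and replicates were averaged is not given in the sources used here; for these steps the paper refers to supplementary procedures that were not used here. All values equal the log2 of a fold that has 2 decimals, within 6e-05. The direction follows the labels, which give WT as the control, and the signs of the study's list of changed bud genes were used to check the bud column.

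Of 26545 probes, 71 control spots were left out. The platform annotation gave 5784 probes 1 gene symbol, 7497 several and 13264 none, and the last are not named here. Names were updated by gene identifier through the RefSeq gene table, which 28 single-gene probes did not match. Probes of a gene were averaged. No normalization was applied and no test was made, since each stage is 1 sample. The depth of signal is unknown.

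Members, gene lists and alternatives were chosen with earlier results of these data known. Values were named for the 4 genes, for up to 4 genes of a list farthest from 0 in buds, and for the 3 nearest genes of each. A list by gene description could not be made. List members on shared probes, *UBC27* and *UBC37* were named outside this rule, after their values were seen. Counting was tested on simulated data. Python 3.11.15, numpy 2.4.6, pandas 2.3.3 and matplotlib 3.10.9 were used.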

Additional observations from a re-analysis of the deposited data

Results flagged for a closer look

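The ratio of *UBC31* had opposite signs at different stages, below 0 in buds and open flowers and above 0 in siliques. Its silique value was 2.55 above its bud value and 0.79 above its open flower value on the log2 scale. That silique value, 0.36, rests on 1 probe, beside an SD of 0.27 between probes of a gene at that stage. *EC1.5* was below 0 in buds and siliques and slightly above 0 in open flowers. Its open flower value was 0.69 above its bud value, and its silique value was lower than that of open flowers, with a difference of -0.55. The open flower ratio of *EC1.5*, 0.03, is smaller than the SD of 0.17 between probes of a gene at that stage. With the shared probe averaged in, it was at -0.01, and its signs no longer differed. The differences between stages were not tested, as there is 1 sample per stage.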

How the results depend on the processing

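No paired analysis was possible because the replicates of a stage were already merged into a single ratio, and for the same reason none was left out in turn. Signal over background, which limits each ratio, is unknown. Of 240 recomputed values, 32 moved and 208 stayed close (counts within 1.5 times, ratios and medians within the SD between probes of a gene). Of all 240, 173 were identical to the reported value, in part because a setting had nothing to act on: each of the 4 genes has 1 probe of its own, *UBC31* has no shared probe, and each column already has a median of 0. Scaling the columns to the spread of the bud column cannot change the bud values. Many counts within the short gene lists were 0 under every setting. The number that stayed close is therefore no measure of how stable the ratios are. Nor is the number that moved, since a looser or stricter fold limit changes counts by design. Averaging shared probes in also raises the number of genes counted. The setting that counts probes of the same values once was chosen after seeing the data and moved nothing. Leaving out probes 4.64-fold or more from WT was not recomputed for the 4 genes, since none is in that range. *UBC31*, 4.56-fold lower in buds, falls just short of it, so this says nothing about its stability. The cause of the changes was not tested beyond what each setting adds or removes.

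With shared probes averaged in, *EC1.1* was at -1.05 in buds and *FER* at -0.41 in buds and -0.23 in open flowers. The median of the *EC1* genes was then -0.49 in buds and -0.037 in siliques, that of the FER family kinases -0.51, -0.15 and -0.10 from buds to siliques (2 of them 2-fold lower in buds), and that of the ubiquitin-conjugating enzymes -0.16 in buds. At 1.5-fold, 2 *EC1* genes counted as lower in buds, beside 417 of all 5413 genes. In siliques 1 ubiquitin-conjugating enzyme did, beside 335 of all 5413. Without probes 4.64-fold or more from WT, 1 ubiquitin-conjugating enzyme was 2-fold lower in buds and 0 in open flowers, as *UBC30* dropped out. Among all genes, 127 in buds and 54 in open flowers were 2-fold lower under that setting.

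Counts over all genes in buds, open flowers and siliques moved too. A limit of 1.5-fold gave 417, 302 and 335 on the lower side and 213, 226 and 309 on the higher side. A limit of 3-fold gave 137 lower in buds, 82 lower in siliques, and 10, 12 and 11 higher. With shared probes 13976 or 13977 genes were counted in place of 5413, and the lower counts were 648, 465 and 340. The higher counts were 87, 100 and 105, against 60, 69 and 67 on single-gene probes, a smaller share of the genes at each stage. As shares, the lower counts were 4.64%, 3.33% and 2.43%, against 4.40%, 2.81% and 2.36% on single-gene probes. Without the 4.64-fold range the lower counts were 127, 54 and 55.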
